A study of Mus musculus with 10 samples.

Results

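The 413 genomic regions described here carried a called XBP-1 peak in each of 8 chromatin immunoprecipitation (ChIP-seq) libraries from mouse liver. They were found by merging the 271621 peaks of the 8 per-library lists wherever peaks shared at least 1 bp. This gave 121319 merged regions, of which the 413 (0.34%) held a peak from every library. Membership was therefore chosen on the peak calls themselves, so the number of regions and their calls in each library are a description and carry no test.

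All mice were of strain C57BL/6J, and the 8 libraries were made with the same antibody against Xbp-1s. The Fasted and Fed groups were wild-type mice labelled as fasted or fed. The Ern1-LKO group lacked Ern1 in the liver, and the WT group was labelled wild-type with no feeding state. Each group had 2 libraries. The labels give neither the length of the fast, nor the driver of the liver deletion, nor whether the libraries came from separate animals, so any spread between replicates may be technical. Peaks do not measure the Ern1 deletion. The series set out to map XBP-1 targets that bear on liver metabolism.

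Per the file headers, Fasted and Fed lists were called against one input library with 51-bp tags, and Ern1-LKO and WT lists against another with 50-bp tags. Groups were therefore set against each other only within these pairs, apart from a description of rank correlations, and differences between the pairs cannot be told apart from the input and tag length. Kept tags per library ranged between 4340956 and 17399899. The Ern1-LKO replicate 1 list stood apart: it held 698 peaks, against 30796 in Ern1-LKO replicate 2, and 6258 and 30327 in WT. The Fasted lists held 53973 and 19237 peaks and the Fed lists 82975 and 47357.

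XBP-1 is a basic leucine zipper transcription factor of the unfolded protein response. When unfolded proteins accumulate in the endoplasmic reticulum (ER), the kinase and endoribonuclease IRE1, the product of Ern1, removes a short intron from Xbp1 mRNA, and the spliced mRNA encodes the active factor XBP-1s. XBP-1s binds ER stress response elements (ERSE) beside the CCAAT-binding factor NF-Y, and unfolded protein response elements (UPRE) built round an ACGT core. Its known targets are genes for folding, translocation, glycosylation, transport and degradation of secretory proteins, a load that is large in liver.

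The promoter stretches below are shown so that the known XBP-1 elements can be read beside the summits of strong and weaker members. Each is centred on the median summit of the 8 libraries, as far as the RefSeq promoter window of 250 bases before to 50 after a gene start reaches, and stops 30 bases into the transcript. Coordinates are of build GRCm38.p6, the assembly of mm10, and each stretch reads 5′ to 3′ on the strand of the gene. In the first set, capitals mark an ERSE (CCAAT and CCACG with 9 bases between them) or an ERSE-II (ATTGG and CCACG with 1 base between them), on either strand.
Pdia6, chr12:17266478-17266578, plus strand: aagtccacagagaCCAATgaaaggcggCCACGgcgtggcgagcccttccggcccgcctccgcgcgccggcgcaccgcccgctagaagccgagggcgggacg
Creld2, chr15:88819501-88819601, plus strand: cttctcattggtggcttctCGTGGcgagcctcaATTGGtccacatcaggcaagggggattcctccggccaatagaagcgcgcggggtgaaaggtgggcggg
Dnajc3, chr14:118937799-118937899, plus strand: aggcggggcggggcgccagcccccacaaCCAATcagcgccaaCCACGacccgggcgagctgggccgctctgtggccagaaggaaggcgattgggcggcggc
Hsp90b1, chr10:86705556-86705656, minus strand: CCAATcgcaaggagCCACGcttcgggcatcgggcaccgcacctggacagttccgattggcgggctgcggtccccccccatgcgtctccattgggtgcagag
Hspa5, chr2:34771963-34772113, plus strand: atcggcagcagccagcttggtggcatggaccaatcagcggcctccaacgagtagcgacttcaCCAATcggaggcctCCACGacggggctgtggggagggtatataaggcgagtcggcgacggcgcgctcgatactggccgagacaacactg
Herpud1, chr8:94386324-94386424, plus strand: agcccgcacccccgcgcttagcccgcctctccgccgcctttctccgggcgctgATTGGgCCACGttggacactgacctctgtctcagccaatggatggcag

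In the second set, capitals mark a UPRE (TGACGTGG) in Txndc5, Tm9sf3 and Sec24d, a motif of 7 bases around the same core (GCCACGT) in Sec63 and Tmed9, and the shorter GACGTG in Hdlbp and Mia3.
Txndc5, chr13:38528014-38528114, minus strand: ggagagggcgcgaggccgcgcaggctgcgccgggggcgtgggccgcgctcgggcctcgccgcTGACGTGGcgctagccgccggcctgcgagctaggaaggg
Tm9sf3, chr19:41263990-41264090, minus strand: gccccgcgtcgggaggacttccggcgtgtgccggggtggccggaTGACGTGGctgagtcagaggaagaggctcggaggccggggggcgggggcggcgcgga
Sec24d, chr3:123267438-123267525, plus strand: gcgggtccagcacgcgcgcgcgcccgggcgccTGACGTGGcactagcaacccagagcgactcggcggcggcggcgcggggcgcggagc
Sec63, chr10:42761443-42761525, plus strand: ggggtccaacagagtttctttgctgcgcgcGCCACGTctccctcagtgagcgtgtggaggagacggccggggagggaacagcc
Tmed9, chr13:55593085-55593164, plus strand: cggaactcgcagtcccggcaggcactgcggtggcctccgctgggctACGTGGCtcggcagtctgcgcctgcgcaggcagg
Hdlbp, chr1:93445672-93445766, minus strand: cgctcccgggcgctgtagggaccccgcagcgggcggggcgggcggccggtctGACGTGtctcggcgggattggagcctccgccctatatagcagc
Mia3, chr1:183369590-183369690, minus strand: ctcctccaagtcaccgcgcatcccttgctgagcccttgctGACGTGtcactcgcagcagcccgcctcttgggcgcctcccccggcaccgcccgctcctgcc

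The third set holds none of the ERSE, ERSE-II, UPRE or GCCACGT matches. Here capitals mark GC boxes (GGGCGG on either strand), a motif of many promoters. Pdia3 was among the strongest members, and Brpf3 and Ubtd2 were of middle strength and placed higher in Ern1-LKO than in WT.
Pdia3, chr2:121413839-121413931, plus strand: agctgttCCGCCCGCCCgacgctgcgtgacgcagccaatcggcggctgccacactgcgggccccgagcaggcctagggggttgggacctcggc
Brpf3, chr17:28801100-28801155, plus strand: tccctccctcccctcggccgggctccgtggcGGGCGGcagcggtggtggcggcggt
Ubtd2, chr11:32455186-32455286, plus strand: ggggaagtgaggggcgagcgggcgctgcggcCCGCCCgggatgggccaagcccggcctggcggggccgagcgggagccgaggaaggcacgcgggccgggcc

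Membership was set almost wholly by the shortest list. Of the 1465 regions with a peak in 7 libraries, 1250 lacked only Ern1-LKO replicate 1 and 195 lacked only WT replicate 1. Fasted replicate 2 was the missing library in 13, Ern1-LKO replicate 2 in 6 and Fed replicate 1 in 1. Without Ern1-LKO replicate 1, 1663 regions would have had a peak in every library, and without WT replicate 1, 608 would. From the other side, 440 of the 698 peaks of Ern1-LKO replicate 1 (63.0%) lay in the 413 regions, against 7.77% of the peaks of WT replicate 1 and 0.591% of those of Fed replicate 1.

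**Figure D1:**
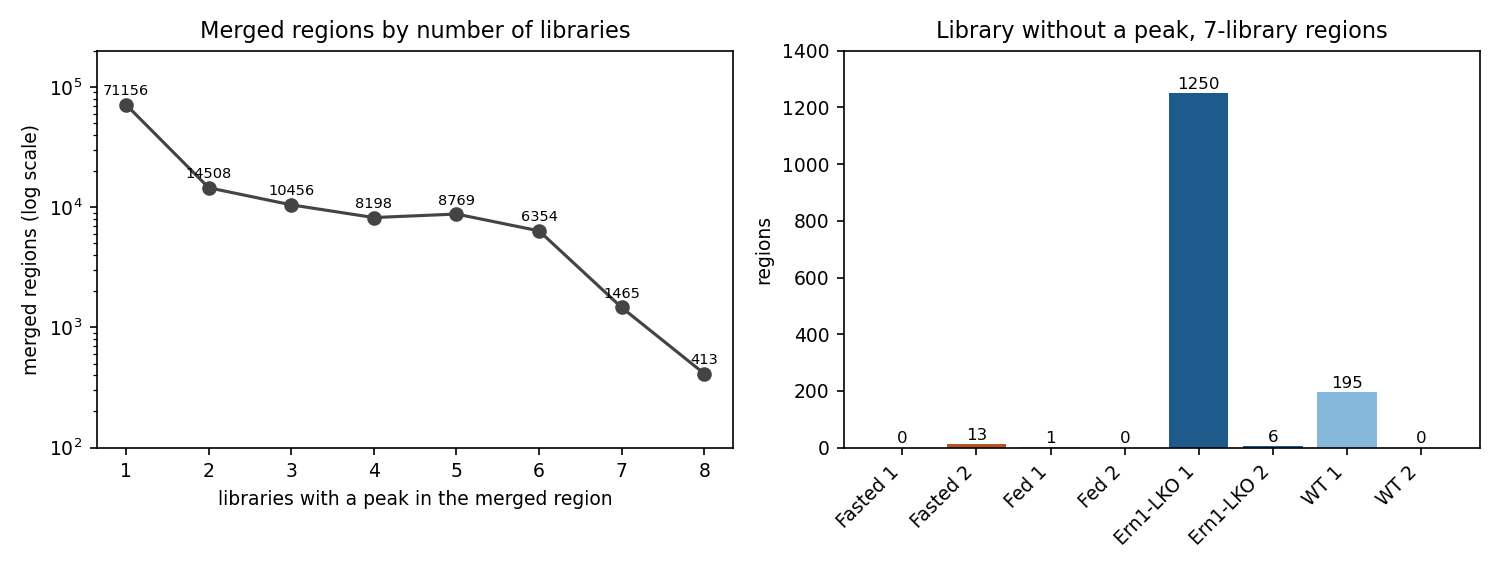
Left, the number of merged regions (log scale) by the number of libraries with a peak, which falls to 413 at 8 libraries. Right, the library without a peak in the 1465 regions with 7 libraries, which is Ern1-LKO replicate 1 in 1250 of them.

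The weakest calls inside the set were at Lrp5, a Wnt co-receptor gene, and Nadk2, a mitochondrial NAD kinase gene, with −log10 q of 1.36 in Ern1-LKO replicate 1, and at Med13l, a Mediator subunit gene, with 1.54 in WT replicate 1. Just outside, Nktr, the sialic acid synthase gene Nans and Txlna had no peak in Ern1-LKO replicate 1 alone. Fold enrichment at Nktr was 28.3 and 16.2 in Fasted, 26.1 and 43.9 in Fed, 27.8 in Ern1-LKO replicate 2, and 20.1 and 47.4 in WT. In the 7 libraries with a peak, its fold stood above the median of the members each time.

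Fold enrichment is the authors' ratio of the ChIP pileup to the local background of the input. Over the 413 regions its median was 19.1 and 10.01 in Fasted, 9.54 and 13.0 in Fed, 5.52 and 20.9 in Ern1-LKO, and 7.15 and 20.02 in WT. The medians followed the library as much as the group, so each region was instead ranked within each library among the same 413, with rank 1 for the highest fold. Rank correlations over the 413 regions (Spearman, a description, since regions share library and depth) were 0.658 within Fasted, 0.799 within Fed, 0.557 within Ern1-LKO and 0.807 within WT. Between groups they ran between 0.233 for Fasted replicate 1 with Ern1-LKO replicate 1 and 0.72 for Fed replicate 1 with WT replicate 1. By mean rank over the 8 libraries the regions were split into an upper tier of 138, a middle tier of 138 and a lower tier of 137.

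Most of the 413 regions lay at the start or end of a protein-coding gene. A median summit within 1 kb of one was found in 373 (90.3%), against 18.5% of the 120906 regions with a peak in 1 to 7 libraries. The 1465 regions with 7 libraries gave nearly the same share, 90.9%. A further 25 members lay inside a gene and 15 between genes. Members were wide, with a median of 1303 bp, against 285 bp for regions with 1 to 7 libraries. The median width rose with the number of libraries, to 895.5 bp with 6 and 1140 bp with 7, so width was not particular to the members. In 55 regions 2 or more genes had an end within 1 kb. Starts on opposite strands lay within 1 kb of the median summit in 29 of the regions, such as Pdia3 with Catsper2 and Creld2 with Alg12. A peak has no strand and cannot be assigned to one gene of such a pair.

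In all, 428 of 21883 protein-coding genes (1.96%) had a member at an end. The members lay on every autosome, from 38 on chromosome 5 down to 11 on chromosome 18, and none lay on X or Y. Chromosome X carries 4.41% of the protein-coding genes used. It held 1.09% of regions with 7 libraries and 0.812% of regions with 1 library, so few regions of any class lay there. The Ern1-LKO replicate 1 list had 5 peaks on X and WT replicate 1 had 71.

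The leading region was at Tram1, which assists the entry of proteins into the ER (chr1:13588864-13590307). Fold enrichment at Tram1 was 115 and 77.2 in Fasted, 70.5 and 115 in Fed, 22.02 and 78.4 in Ern1-LKO, and 44.3 and 80.8 in WT. It ranked 1 in all 4 Fasted and Fed libraries and between 3 and 5 in the Ern1-LKO and WT libraries, and its summits fell within 25 bp of each other. The second region covered the start of Brd2, a bromodomain reader of acetylated histones, and also touched H2-DMa, which loads peptides on major histocompatibility complex class II. There the fold was 77.8 and 60.5 in Fasted, 52.2 and 92.8 in Fed, 31.7 and 103 in Ern1-LKO, and 37.1 and 78.4 in WT. This region ranked 1 in both Ern1-LKO libraries, against 12 and 6 in WT.

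Next came the disulfide isomerase gene Pdia6, with an ERSE 28 bp from the median summit. At Pdia6 the fold was 72.7 and 29.4 in Fasted, 47.6 and 71.2 in Fed, 19.6 and 74.7 in Ern1-LKO, and 41.2 and 76.5 in WT, and the groups overlapped in both comparisons. Hdlbp, which encodes an RNA-binding protein with many KH domains, followed with 66.5 and 19.0 in Fasted, 54.6 and 92.2 in Fed, 23.8 and 66.6 in Ern1-LKO, and 44.6 and 71.9 in WT. Both Fasted ranks at Hdlbp (9 and 36) stood below both Fed ranks (5 and 4), with Fasted replicate 2 the low library.

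Pdia3, another disulfide isomerase gene, shares its region with Catsper2, a sperm cation channel gene. Its fold was 78.5 and 54.8 in Fasted, 43.8 and 78.5 in Fed, 16.3 and 65.4 in Ern1-LKO, and 36.5 and 54.5 in WT. Both Fasted ranks (2 and 3) stood above both Fed ranks (18 and 5). The export receptor gene Mia3 went the other way, with Fasted ranks of 10 and 4, against Fed ranks of 3 and 2.

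Hyou1, an ER chaperone gene, Creld2 with the mannosyltransferase gene Alg12, the co-chaperone gene Dnajc3 and the disulfide isomerase gene Txndc5 completed the first 10. Their mean ranks lay between 14.3 and 16.4, and their lowest fold in any library was 12.1, for Hyou1 in Ern1-LKO replicate 1. Of these first 10 regions, 8 held a gene of a secretory-pathway list, and Brd2 and Hdlbp did not.

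**Figure D2:**
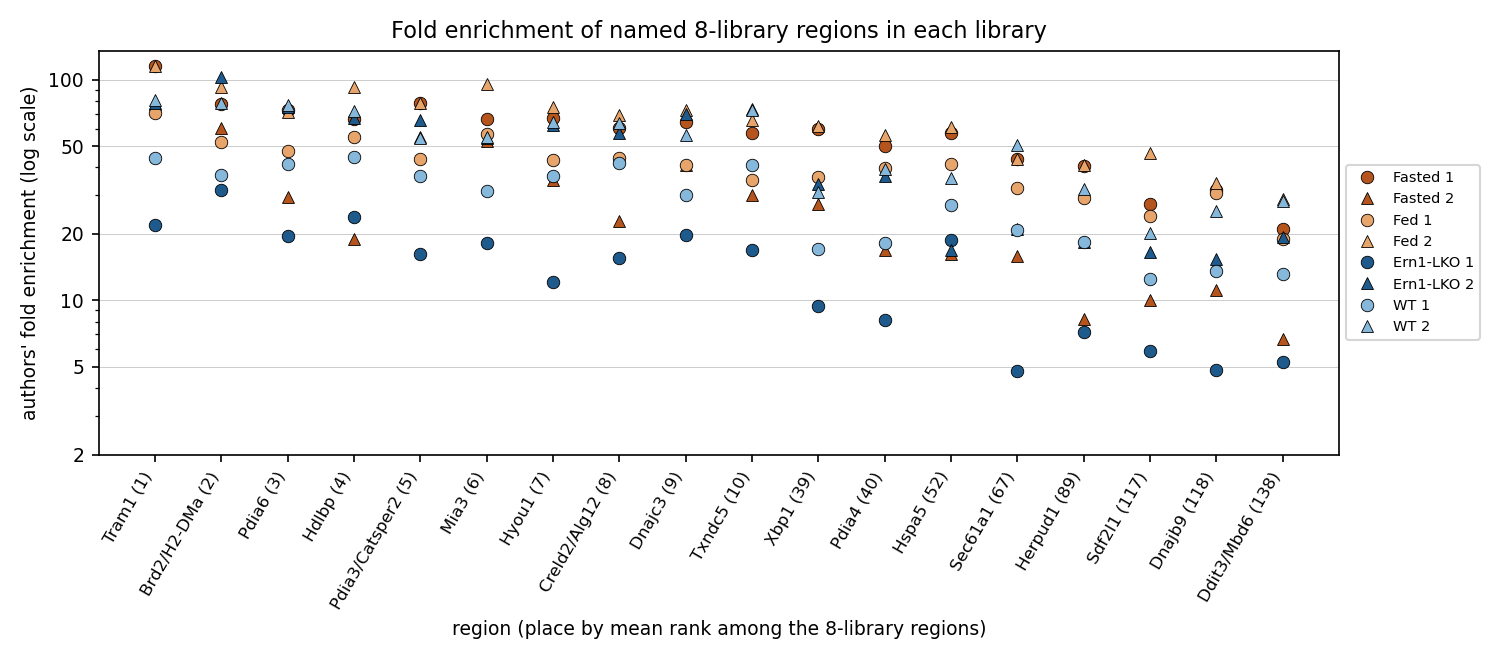
The authors' fold enrichment (log scale) in each of the 8 libraries for the first 10 regions and for 8 further named genes, ordered by mean rank among 413. Ern1-LKO replicate 1 is the lowest library at Tram1 (22.02) and Pdia6 (19.6), and the Ern1-LKO libraries lie close together at Hspa5 (18.8 and 17.0).

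After the first 10, regions with a gene in none of the lists included Stkld1, which shares its region with the cargo receptor gene Surf4, Tm9sf3, the ER calcium pump gene Atp2a2, Eif1a beside the transport gene Tmed7, and Fndc3b. Rapgef2, Hnrnpa3, Yrdc and Snd1 also fell within the first 25. Atp2a2 had folds of 67.6 and 39.1 in Fasted, 32.0 and 63.8 in Fed, 19.4 and 58.9 in Ern1-LKO, and 30.6 and 61.5 in WT. Its summits fell within 13 bp, and its ranks were better in both Fasted than in both Fed libraries, and better in both Ern1-LKO than in both WT libraries.

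Genes of protein folding in the ER were the best represented group. Of 35 such genes, 21 had a member region (60%), against 1.96% of all protein-coding genes, and all 21 lay in the upper tier. Besides those named above they were Txndc11, Manf, Hsp90b1, Ppib, Fkbp2, Pdia4, Hspa5, Dnajb11, Canx, Dnajc10, Sdf2l1, Dnajb9, Pdia5, Sil1 and Ero1b. Hspa5, the major ER chaperone BiP, had a fold of 57.2 and 16.2 in Fasted, 41.4 and 60.7 in Fed, 18.8 and 17.0 in Ern1-LKO, and 27.0 and 35.9 in WT. The Ern1-LKO libraries placed it very differently, at rank 10 in replicate 1 and 323 in replicate 2.

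Dnajb9, a co-chaperone of BiP, had 31.6 and 11.1 in Fasted, 30.5 and 34.2 in Fed, 4.84 and 15.4 in Ern1-LKO, and 13.6 and 25.3 in WT. Both Ern1-LKO ranks (286 and 363) were below both WT ranks (122 and 144). Pdia4 lay the other way, with ranks of 63 and 50 in Ern1-LKO, against 88 and 79.5 in WT. Sdf2l1, a chaperone cofactor gene, ranked 117th by mean rank, and its groups overlapped in each comparison.

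Translocon and targeting genes had 8 members among 25 (32.0%): Tram1, the signal recognition particle gene Srp72, the translocon-associated genes Ssr1 and Ssr3, Sec63, Sec61a1 and the signal peptidase genes Spcs2 and Spcs3. At Sec61a1, the channel subunit, the fold was 43.5 and 15.9 in Fasted, 32.4 and 43.7 in Fed, 4.78 and 20.9 in Ern1-LKO, and 20.8 and 50.3 in WT. Both Ern1-LKO ranks (291 and 205) fell below both WT ranks (75 and 43). Sec61b had no member.

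For N-glycosylation the count was 6 of 35 (17.1%): Alg12, the oligosaccharyltransferase genes Rpn2, Stt3b and Ddost, the UDP-sugar synthesis gene Uap1, and Dpm1. Rpn2 was the best placed region in both WT libraries, at rank 1, against 3 and 8 in Ern1-LKO. Its folds were 46.8 and 14.2 in Fasted, 38.6 and 62.9 in Fed, 22.2 and 72.2 in Ern1-LKO, and 54.9 and 90.6 in WT. The pair of Fasted ranks (36 and 85) also lay below the pair of Fed ranks (31 and 28).

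ER-Golgi transport contributed 18 of 57 genes (31.6%), led by Mia3, Surf4, Tmed7, the small GTPase gene Arf1, Tmed3 and the COPII coat gene Sec24d. Arf1 had folds of 49.2 and 16.3 in Fasted, 39.6 and 63.5 in Fed, 6.70 and 31.5 in Ern1-LKO, and 31.2 and 64.3 in WT. ER-associated degradation contributed 5 of 24 (20.8%), among them Selenos, the glycoprotein recognition gene Edem1, the ubiquitin-conjugating enzyme gene Ube2j1 and Herpud1. Herpud1 had 40.5 and 8.21 in Fasted, 29.2 and 41.1 in Fed, 7.22 and 18.5 in Ern1-LKO, and 18.4 and 32.0 in WT, and its groups overlapped in both comparisons.

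The regulators of the unfolded protein response gave 3 of 22 genes (13.6%). At Xbp1 itself (chr11:5520455-5522188) both Fasted ranks (17 and 20) were above both Fed ranks (37 and 32), and both Ern1-LKO ranks (51 and 57) were above both WT ranks (99 and 116). Eif2ak3, the gene of the ER stress kinase PERK, overlapped between groups. Ddit3, which encodes the stress factor CHOP and shares its region with Mbd6, ranked 161 and 354 in Fasted, against 116 and 102 in Fed, and 236 and 250 in Ern1-LKO, against 127 and 129 in WT. The regions of Xbp1 and Ddit3 therefore shifted in opposite directions in both comparisons.

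The 5 secretory lists together held 176 genes, of which 58 (33.0%) had a member, in 57 regions. Of these 57 regions, 52 lay in the upper tier. Without Ern1-LKO replicate 1 the counts were 27 for folding, 14 for the translocon, 10 for glycosylation, 30 for ER-Golgi transport, 12 for degradation and 6 for the response regulators. With peaks of −log10 q of at least 5 they were 21, 8, 5, 16, 5 and 3. These sets hold 1663 and 282 regions. The share of all protein-coding genes with a region was worked out only for the 413, so neither set has a background for its counts. Genes of lipogenesis (0 of 24), gluconeogenesis (0 of 18), fatty acid oxidation and ketogenesis (0 of 20), cytosolic ribosomal proteins (0 of 24) and the proteasome (0 of 24) had no member. Only 1.96% of all protein-coding genes had one, so a count of 0 in lists this short does not set them apart. Markers of hepatocytes, Kupffer cells, endothelium, stellate cells, cholangiocytes and lymphocytes had none either, so the members give no check of which liver cells were captured.

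Of 19 circadian clock genes, 3 had a member: Nr1d2, a heme-binding repressor of the clock, Clock and Bhlhe40. None was in the upper tier. Nr1d2 ranked 291 and 252 in Fasted, against 201 and 126 in Fed, while Clock ranked 110 and 67 in Fasted, against 203 and 225 in Fed.

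The places of the summits set the upper tier apart from the others. For each region the summit range is the distance between the outermost of its 8 summits, one per library. It had a median of 288 bp over all members, with quartiles of 101 and 619 bp. By tier the median was 82 bp in the upper, 463.5 bp in the middle and 423 bp in the lower tier. A range of at most 100 bp was found in 81 of the 138 upper regions, 9 of the 138 middle regions and 12 of the 137 lower regions. The tiers had like widths, with medians of 1251, 1417.5 and 1230 bp. The 57 regions of the secretory lists had a median range of 76 bp, against 348.5 bp for the 356 others. Within the upper tier the medians were 71 bp for 52 secretory regions and 94.5 bp for the 86 others. Fold moves with the tiers by their construction, and its part in the summit range was not tested.

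**Figure D3:**
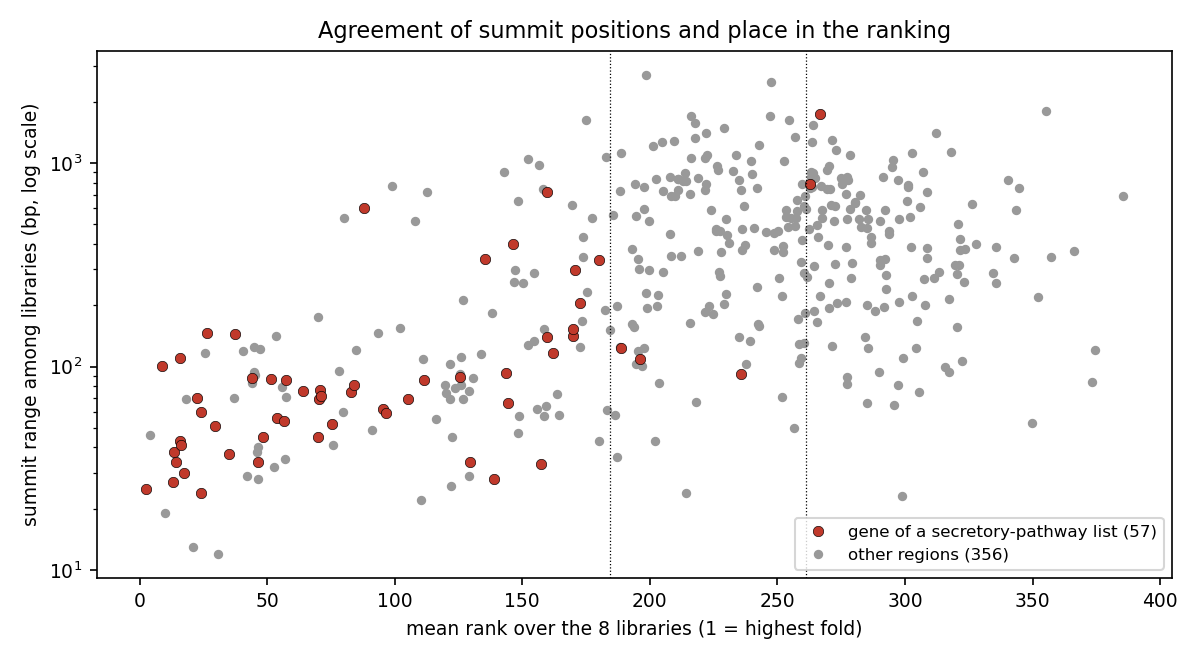
Summit range among the 8 libraries (bp, log scale) against mean rank, with 57 regions at a gene of a secretory-pathway list and 356 others, and dotted lines between tiers. Most upper-tier regions lie near or below the lower quartile of 101 bp, while the middle and lower tiers have medians of 463.5 and 423 bp.

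The summits also moved relative to gene starts. An annotated start lay within 1 kb of 308 summits, and the median summit was 101.5 bp downstream of it. The median position was 15 bp upstream of the start in the upper tier (−15 bp, quartiles −93 and 77), against 142 bp downstream in the middle tier (−42 and 258.5) and 178 bp downstream in the lower tier (82.5 and 292.5). The middle and lower tiers thus had their median past the start, and the upper tier just before it. Tmed9 had its median summit on the start itself, and that of Hdlbp lay 15 bp before it.

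Known XBP-1 motifs were counted in one promoter window per region, for the 298 members whose region covered a start in the promoter table. An ERSE, ERSE-II, UPRE (TGACGTGG) or GCCACGT on either strand was held by 67 (22.5%), against 4.63% of 9621 windows in regions with 1 to 7 libraries, 8.997% of those with 7 libraries, 1.70% of windows with no peak and 3.58% of all 21262 windows. Both a GCCACGT and a UPRE were held by 10 member windows, whether or not the 2 matches overlapped. By tier the share was 44.8% of 105 windows in the upper, 11.9% of 101 in the middle and 8.70% of 92 in the lower tier. Without Ern1-LKO replicate 1 the share over all members was 12.5%, and without WT replicate 1 it was 16.1%, each over the promoter windows of the larger set.

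Each motif had its own share. GCCACGT was held by 16.4% of member windows, against 3.98% of those with 1 to 7 libraries and 2.91% of all windows. UPRE was held by 6.38%, 0.748% and 0.705% in the same order, and ERSE by 2.68%, 0.0935% and 0.141%. ERSE-II was held by 2 member windows, 0.671%, against 0.052% of those with 1 to 7 libraries. Other motifs were counted in the same way: CCAAT alone was in 34.9% of member windows, 35.3% of those with 1 to 7 libraries and 38.2% of all windows. In the same order, the ETS motif CCGGAAG was in 15.8%, 16.9% and 11.6%, the GC box in 85.2%, 70.5% and 46.2%, and the E-box CACGTG in 14.1%, 10.7% and 7.84%. CCACG, which every GCCACGT and ERSE holds, was in 64.4%, 51.2% and 37.4%, and GACGTG, which every UPRE holds, in 23.2%, 9.21% and 7.17%. The cyclic AMP response element was in 2.35%, 3.41% and 2.23%, TATAAA in 4.70%, 5.74% and 12.6%, the NRF1 motif in 2.68%, 1.89% and 1.33%, and the YY1 motif in 1.68%, 1.94% and 1.21%. For some motifs the windows with 7 libraries lay closer to the members than those with 1 to 7 libraries did. They included the GC box (82.3%), CCACG (61.8%), the E-box (15.2%), the NRF1 motif and TATAAA. For CCAAT (29.6%), ETS (18.4%), the cyclic AMP response element (4.78%) and YY1 (2.81%), the windows with 7 libraries lay farther from the members. They held GCCACGT in 7.69%, GACGTG in 15.8% and UPRE in 1.41%. Member windows were rich in G and C, with a median of 70.3%, against 68.3% with 7 libraries, 63.0% with 1 to 7 libraries and 56.3% over all windows. Base composition therefore moved with the number of libraries, and its part in the motif shares was not tested. Within members it ran the other way, with 67.0% in the upper, 72.0% in the middle and 70.8% in the lower tier.

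The searched window stops 50 bases past the start, and many summits lay beyond it, so distances were read with that limit. The median summit fell inside the window in 69 of 105 upper-tier windows (65.7%), 27 of 101 middle-tier windows (26.7%) and 15 of 92 lower-tier windows (16.3%). Over all windows with a match, the median distance between the nearest GCCACGT and the summit was 23 bp in 35 upper-tier, 126 bp in 9 middle-tier and 329 bp in 5 lower-tier windows. General motifs ran the same way, with 41, 243.5 and 254 bp for CCAAT and 52.5, 182.5 and 208.5 bp for the GC box.

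Where the summit lay inside the window, the median distance of GCCACGT was 18 bp in 29 upper-tier and 41 bp in 5 middle-tier windows, and 135 bp in the 1 lower-tier window. In such windows CCAAT lay at 22, 83 and 47 bp and the GC box at 36.5, 16.5 and 35 bp by tier, so the order of the tiers did not hold for these. The share of these windows with 1 of the 4 motifs was 58.0% of 69 upper, 25.9% of 27 middle and 13.3% of 15 lower windows. This restriction was chosen after seeing the data. All 8 windows with an ERSE were in the upper tier, with a median distance of 18.5 bp, and the ERSE of Hspa5 lay 4 bp from the summit. In Herpud1 the ERSE-II lay 8 bp from the summit, and in Tmed9, of the middle tier, the GCCACGT lay 1 bp from it.

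**Figure D4:**
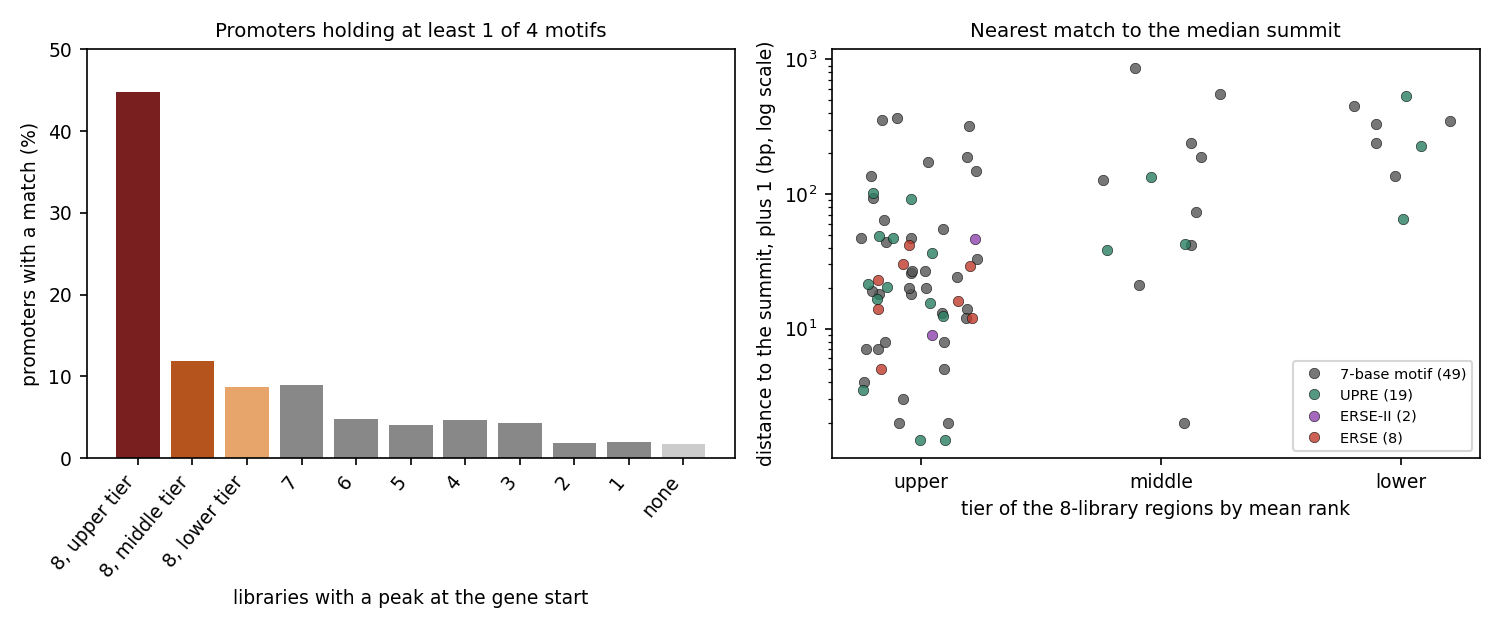
Left, the percent of promoter windows with at least 1 of the 4 motifs, by number of libraries in the region that covers the start. The 8-library members are split into tiers (44.8%, 11.9% and 8.70%). Right, the distance of the nearest match of each motif to the median summit (plus 1 bp, log scale) by tier, with the ERSE matches all in the upper tier; the summit lies inside the searched window in 65.7%, 26.7% and 16.3% of windows by tier.

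Read from the motif side, the exact ERSE occurred in the promoter windows of 29 genes of the table. In 9 of them the start lay in a merged region with a peak from all 8 libraries. These were Alg12, Canx, Creld2, Dnajc3, Ero1b, Hnrnpa3, Hsp90b1, Hspa5 and Pdia6. Whether each library's own peak reached the start was not asked. In 3 more, the chaperone gene Calr, the ubiquitin ligase gene Syvn1 and Pan2, the region at the start held peaks from 7 libraries. In 11 the start lay in no merged region, among them the pheromone genes Esp15, Esp16, Esp18 and Esp36, Olfr59 and Acacb. Of the 11 genes with an ERSE-II, Dnajb11 and Herpud1 had their start in a region of all 8 libraries, and 3 in no region. Hnrnpa3, an RNA-binding protein gene, was the 1 gene among the 9 with an ERSE that belongs to none of the secretory lists.

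Windows of the secretory lists held one of the 4 motifs in 27 of 46 cases (58.7%), against 40 of 252 (15.9%) for the other members. Within the upper tier the shares were 60.5% of 43 and 33.9% of 62. A window without 1 of the 4 motifs may hold a shorter element, as those of Hdlbp and Mia3 hold GACGTG. The window of Pdia3, number 5 in the order, holds CCAAT and GC boxes but none of the 4.

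Fasted and Fed livers were compared by rank. A region is called placed lower in Fasted where both Fasted libraries rank it below both Fed libraries, and placed higher where both rank it above. With 2 libraries against 2, the smallest p an exact two-sided permutation test can give is 0.333, so no single region can pass 0.05 by that test. Among the 10322 regions with a peak in all 4 libraries, ranked among themselves, 17.5% were placed lower and 16.5% higher in Fasted. Ranked among the 413 members, 92 (22.3%) were placed lower and 116 (28.1%) higher in Fasted. When members kept their ranks among the 10322 regions instead, 103 were placed lower and 69 higher, so the balance of directions depends on the set ranked.

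The largest shifts down in Fasted included a region between genes on chromosome 2 (chr2:158396947-158398038) and regions at Bcat2, a branched-chain amino acid aminotransferase gene, inside the small GTPase gene Rhof, and at Ddost. The chromosome 2 region had folds of 6.39 and 6.37 in Fasted, against 44.9 and 13.4 in Fed, and ranks of 411 and 370, against 13 and 192.5. Bcat2, which shares its region with Hsd17b14, had 15.6 and 5.47 in Fasted, against 33.0 and 31.0 in Fed. In the Rhof region the fold was 13.7 and 3.96 in Fasted, against 17.0 and 27.7 in Fed.

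The largest shifts up in Fasted were at Brpf3, a histone acetyltransferase scaffold gene, Mapkapk2, a kinase gene of the stress response, Bzw1, Hs2st1 with the ER selenoprotein gene Selenof, and Arid4b with Ggps1. Brpf3 had folds of 19.6 and 15.9 in Fasted, against 6.39 and 8.56 in Fed. Mapkapk2 had 24.9 and 15.8 in Fasted, against 11.3 and 7.07 in Fed. The 5 regions held places between 223 and 346 by mean rank, so they were middle and lower members, and their summit ranges lay between 247 and 851 bp.

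The secretory lists had 19 of 57 regions (33.3%) placed lower and 6 (10.5%) higher in Fasted, against 73 (20.5%) and 110 (30.9%) of the 356 other members. Within the upper tier 15 of 52 secretory regions (28.8%) were placed lower and 6 (11.5%) higher, against 25 (29.1%) and 32 (37.2%) of the 86 others. The balance also rested on the measure ranked. By −log10 q, 15 secretory regions (26.3%) were placed lower and 13 (22.8%) higher, against 19.9% and 30.1% of the 356 other members. By pileup, 13 (22.8%) were placed lower and 15 (26.3%) higher, against 19.9% and 28.1% of the 356. By list, folding genes were placed lower in 6 and higher in 2 of 21, ER-Golgi transport genes in 6 and 3 of 18, glycosylation genes in 4 and 1 of 6, degradation genes in 2 and 0 of 5, and translocon genes in 1 and 0 of 8. Fasted replicate 2 was low at many of these genes, as at Herpud1 (rank 289, against 47 in Fasted replicate 1) and Selenos (170, against 41). With Fasted replicate 2 left out, 25 secretory regions (43.9%) were placed lower and 15 (26.3%) higher, against 32.3% and 43.0% of the 356 others. With Fasted replicate 1 left out, 36 (63.2%) were placed lower and 15 (26.3%) higher, against 33.4% and 48.0%. These shares were not split by tier.

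In Ern1-LKO livers 104 members (25.2%) were placed lower than in WT and 115 (27.8%) higher. All 428 regions with a peak in these 4 libraries, nearly the same set, gave 24.5% and 28.3%. By tier, 56 of 138 upper, 32 of 138 middle and 16 of 137 lower regions were placed lower in Ern1-LKO, and 21, 52 and 42 were placed higher. The tiers were cut on mean ranks over all 8 libraries, these 4 included, so tier and rank difference are not independent. The part of this in the counts by tier was not tested. Ranks sum to the same total in every library, so a region placed lower needs others placed higher, and an absolute loss or gain of binding cannot be told apart from such shifts.

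The largest shifts down in Ern1-LKO were at Tmed9, Ddost, C2cd5, Tmem39a and Plpp5 with Nsd3. Tmed9, a cargo adaptor gene of early secretory vesicles, had folds of 4.24 and 10.1 in Ern1-LKO, against 22.5 and 33.6 in WT, and ranks of 344 and 407, against 64 and 102. Ddost had 2.90 and 16.0 in Ern1-LKO, against 17.1 and 35.5 in WT. Tmem39a, an ER membrane protein gene, had 4.36 and 14.4 in Ern1-LKO, against 17.9 and 42.5 in WT. In Ern1-LKO replicate 1 the member folds had a median of 5.52, near the 5.40 of all its peaks, and a minimum of 2.81. Ddost lay near that minimum there, and Tmed9 and Tmem39a lay below the median, so these ranks order weak calls. In the other pair, Tmed9 had 26.9 and 4.76 in Fasted, against 26.9 and 35.1 in Fed, and Tmem39a had 49.1 and 12.3 in Fasted, against 50.8 and 75.7 in Fed. Tmed9, Ddost, C2cd5 and Tmem39a were placed lower in Fasted as well.

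The largest shifts up in Ern1-LKO were at the potassium-chloride cotransporter gene Slc12a4, Brpf3, a region before the Mir17 cluster, Usf3 and Ubtd2. Brpf3 had folds of 6.40 and 26.6 in Ern1-LKO, against 3.61 and 14.6 in WT. Ubtd2 had 8.44 and 34.2 in Ern1-LKO, against 5.43 and 18.01 in WT. Slc12a4 had 7.34 and 20.3 in Ern1-LKO, against 3.58 and 9.83 in WT. None of the 5 is in a secretory list, and their summit ranges lay between 203 and 1625 bp.

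Of the 57 secretory regions, 22 (38.6%) were placed lower and 5 (8.77%) higher in Ern1-LKO, against 82 (23.0%) and 110 (30.9%) of the 356 others. Most secretory regions are of the upper tier, and there 19 of 52 (36.5%) were placed lower and 5 (9.62%) higher, against 37 (43.0%) and 16 (18.6%) of the 86 other upper regions. The secretory share placed lower was thus not above that of its own tier. By −log10 q the secretory counts were 21 lower (36.8%) and 8 higher (14%), against 25% and 29.8% of the 356 others. By pileup they were 19 lower (33.3%) and 11 higher (19.3%), against 25% and 28.7%. Leaving out any one of the 4 libraries eases the call for every region. It gave 26 to 32 secretory regions lower (45.6% to 56.1%) and 10 to 16 higher (17.5% to 28.1%). The 356 others then gave 27.5% to 36.5% lower and 40.2% to 48% higher. These shares were not split by tier. The lists differed in their counts. ER-Golgi transport genes were placed lower in 10 and higher in 1 of 18, translocon genes in 4 and 0 of 8, glycosylation genes in 3 and 0 of 6, and degradation genes in 1 and 0 of 5, while folding genes were placed lower in 4 and higher in 4 of 21. The median rank difference, Ern1-LKO minus WT, was 48.9 places for transport genes, 34.9 for glycosylation, 28.8 for the translocon, 6.75 for folding genes and −2.5 for degradation, against −4 over all members. These medians were not set against the upper tier alone, where most of the list regions lie.

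**Figure D5:**
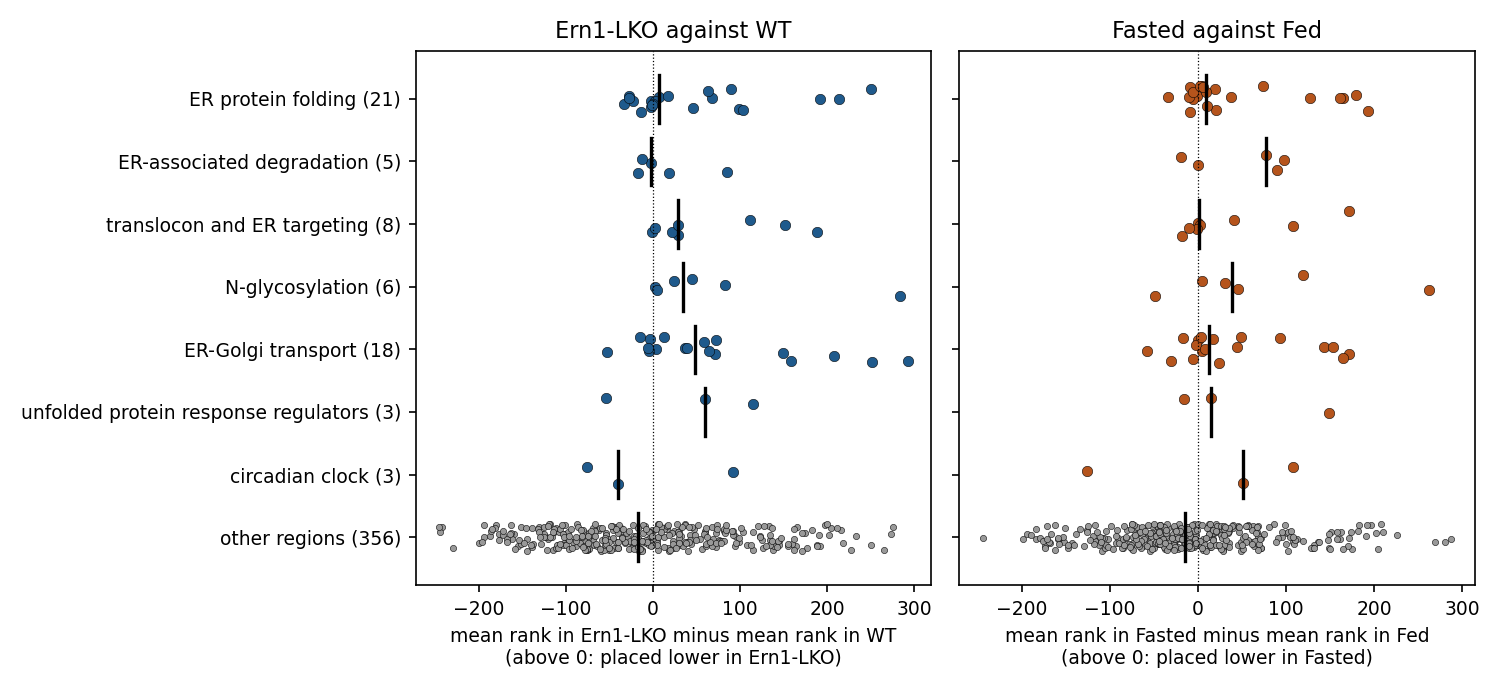
Difference of mean ranks for each member of 7 gene lists and for the 356 regions outside the 5 secretory lists, Ern1-LKO minus WT on the left and Fasted minus Fed on the right; values above 0 are placed lower in Ern1-LKO or in Fasted, and black bars are medians. Transport genes lie mostly above 0 in Ern1-LKO (median 48.9 places), and folding genes lie round a median of 6.75. Most regions of the 5 secretory lists are of the upper tier, and most of the 356 others are not.

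Members with a motif match were placed lower in Ern1-LKO in 32 of 67 cases (47.8%) and higher in 6 (8.96%). Those with a window and no match were placed lower in 51 of 231 (22.1%) and higher in 78 (33.8%). Since matches gather in the upper tier, the tiers were read apart: upper-tier windows with a match were placed lower in 22 of 47, against 21 of 58 without one, and middle-tier windows in 8 of 12, against 18 of 89. In the lower tier the counts were 2 of 8 and 12 of 84. By pileup the counts over all tiers were 29 lower and 12 higher of 67 with a match, against 50 and 61 of 231 without one.

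For Fasted against Fed the same split gave 25 lower and 13 higher of 67 with a match, against 42 and 77 of 231 without one. By pileup the 67 were placed lower in 17 and higher in 18, against 43 and 67 of the 231 without a match. In all, 38 members were placed lower both in Fasted than in Fed and in Ern1-LKO than in WT. Of the 413 members, 92 were placed lower in Fasted and 104 in Ern1-LKO. These comparisons share no libraries but differ in input and tag length. Both calls were most frequent in the upper tier, with 40 and 56 of 138 regions, against 22 and 16 of 137 in the lower tier. The overlap expected from the tiers or from unrelated calls was not worked out, so the 38 are a description.

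The strongest members away from genes had no protein-coding gene end within 5 kb. The first (chr2:144165007-144166232) had folds of 47.5 and 17.3 in Fasted, 42.5 and 63.6 in Fed, 10.1 and 29.1 in Ern1-LKO, and 26.6 and 43.9 in WT, and ranked 28th of all members. The second (chr4:95161069-95161780) ranked 53rd, with folds between 7.47 in Ern1-LKO replicate 1 and 39.8 in Fed replicate 2. The third (chr10:122985332-122986631) ranked 75th and lay over a microRNA gene. Their summit ranges were 125, 41 and 74 bp.

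MicroRNA hairpins lay within 5 kb of the median summit in 9 members. The share of all merged regions with a hairpin as near was not worked out, so the 9 are a description. The Mirlet7i hairpin lay inside the third region above, 597 bp from its median summit, and the Mir148a hairpin 904 bp from the summit of a member inside a predicted gene on chromosome 6. The Mir193a hairpin lay 464 bp from the summit of a region between genes on chromosome 11. The hairpins of Mir17, Mir18, Mir19a, Mir20a, Mir19b-1 and Mir92-1 followed each other on chromosome 14, starting 1755 bp from a summit. The mature sequences, from RefSeq, are shown because the cluster holds shared seeds, with bases 2 to 8 in capitals. miR-17-5p and miR-20a-5p share a seed, as do miR-19a-3p and miR-19b-3p.
mmu-let-7i-5p: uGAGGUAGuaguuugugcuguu
mmu-miR-148a-3p: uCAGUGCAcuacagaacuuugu
mmu-miR-193a-3p: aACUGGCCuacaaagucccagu
mmu-miR-17-5p: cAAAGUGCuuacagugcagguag
mmu-miR-20a-5p: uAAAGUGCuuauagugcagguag
mmu-miR-19a-3p: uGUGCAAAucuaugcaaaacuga
mmu-miR-19b-3p: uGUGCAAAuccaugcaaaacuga
mmu-miR-92a-3p: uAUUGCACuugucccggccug

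The region before the Mir17 cluster (chr14:115040246-115042631) had folds of 18.7 and 15.4 in Fasted, against 7.28 and 13.0 in Fed. In Ern1-LKO the folds were 11.8 and 46.2, against 3.33 and 25.5 in WT, and the ranks 32 and 27, against 403 and 140. Its 8 summits were spread over 1625 bp, so the libraries did not all peak at the same place. At the Mirlet7i region both Ern1-LKO ranks (184 and 165) were below both WT ranks (131 and 81), and both Fasted ranks (93 and 60) were above both Fed ranks (115 and 131). Peaks near a hairpin do not measure the microRNA, which was not analysed here.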

How the data were processed

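XBP-1 ChIP-seq was deposited as 12 peak lists: 8 per library, used here, and 4 of pooled libraries, used in 1 alternative. The submitters' processing notes name build mm10, the aligner Bowtie2 2.2.5, the peak caller MACS2 2.2.1, the quality tool FastQC 0.11.3, and bcl2fastq. Per the file headers, MACS 2.1.1.20160309 called peaks at a q cutoff of 0.05. For each peak the authors deposited a pileup signal at its summit, a ratio to local background called fold enrichment, and the −log10 of its q-value and p-value. They are the authors' own values and were used to describe and rank within a library.

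Peaks were merged at 1 bp in Python 3.11.15 (pandas 2.3.3, numpy 2.4.6, scipy 1.17.1), keeping per library the peak of highest fold in a region. Positions were read against 21883 protein-coding genes of RefSeq GRCm38.p6. Gene ends came from its gene table and starts from its promoter table, which holds 17491 of them. Starts on chromosome 18, with 11 members, were not used here. Motifs (14) were searched in the RefSeq promoter windows. No genome sequence or reads were used here.

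Named regions were the first 10 by mean rank, up to 4 per gene list, the 5 largest non-overlapping shifts per comparison and direction, the 3 strongest with no gene within 5 kb, the weakest inside and strongest outside, 12 fixed genes and up to 15 in no list, passing over Gm and Rik names. Other names complete a whole list or motif set, or were chosen after their values were seen. The members and lists were chosen with earlier results of these data known. Some items that this rule names are not reported here. Merging, rank calls and motif search were tried on simulated data with planted signals, and gene positions on points placed near known gene ends. The planted rank shifts were large against their noise, so these runs check the code and not its power on these libraries. Groups of 2 cannot be screened for outlying libraries.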

Additional observations from a re-analysis of the deposited data

How the results depend on the processing

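The number of regions in all libraries moved with the merge rule and the peaks admitted: 264 with summits chained within 200 bp, 110 at −log10 q of at least 10, 190 at a fold of at least 5, 56 among equal numbers of top peaks and 8638 in the authors' 4 pooled lists. Leaving out each library gave 412 to 1663 regions, a motif share of 12.5% to 22.9%, and list counts of 21 to 27 for folding, 5 to 12 for degradation, 8 to 14 for the translocon, 5 to 10 for glycosylation, 18 to 30 for ER-Golgi transport and 3 to 6 for the response regulators. The share at gene ends was 95.4% with a window of 5 kb and stayed within its 95% exact binomial interval (87.0% to 93.0%, counting error only) under the other settings. Ranked among all regions of the 4 libraries, 69 members were placed higher in Fasted.

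Leaving out 1 library eases the call: 129 to 155 members were then placed lower and 160 to 186 higher in Fasted, and 124 to 159 lower and 155 to 187 higher in Ern1-LKO. Replicate numbers paired no samples by the labels, and deviations of same-numbered libraries correlated at −0.00774 for Fasted with Fed and 0.181 for Ern1-LKO with WT, over 413 regions. With the replicate number as a block, 111 members were placed lower and 146 higher in Fasted, and 127 lower and 147 higher in Ern1-LKO, each within 1.5 times the count without it. Of 136 alternatives of these results, 116 stayed within these limits. Ern1-LKO replicate 1, with 698 peaks, limits what could enter the set. The settings for summit ranges without each library and for ranks of list and motif subsets by other measures or within tiers were chosen after seeing the data.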
